A study of Mus musculus with 22 samples.

Results

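Endocannabinoids are lipid signals made on demand from membrane phospholipids, and 10 genes of this system were followed here in sorted mouse microglia, the resident macrophages of the brain. The genes were chosen by name from their function, with earlier results of these data known. They comprise hydrolases (Mgll, Abhd6, Abhd12 and Faah), synthesis enzymes (Dagla, Daglb and Napepld) and receptors or channels that respond to cannabinoids (Cnr2, Gpr18 and Trpv2). They are 10 of the 54532 genes of the count table, and all 10 were among the 16554 genes that passed the filter on low counts.

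The mice were male C57BL/6J animals in a model of Gulf War Illness, a chronic multi-symptom condition of veterans. GW mice received pyridostigmine bromide (0.7 mg/kg), an acetylcholinesterase inhibitor, with permethrin (200 mg/kg), a pyrethroid insecticide, by injection into the abdomen every day for 10 days from 10 weeks of age. Ctrl mice received the vehicle, and all animals were then aged to 17.5 months. CBD (cannabidiol, a non-intoxicating plant cannabinoid, 30 mg/kg) or its vehicle (Veh) was given daily for 28 days and then every 2 days for 2 weeks. A single dose of LPS (lipopolysaccharide from the outer membrane of Escherichia coli, 0.33 mg/kg) or of PBS (a salt buffer) followed, and microglia were taken 24 hours later.

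The 6 groups were GW mice given CBD and LPS (GW-CBD-LPS, n = 4), GW mice given CBD and PBS (GW-CBD-PBS, n = 3), GW mice given vehicle and LPS (GW-Veh-LPS, n = 3), GW mice given vehicle and PBS (GW-Veh-PBS, n = 4), Ctrl mice given vehicle and LPS (Ctrl-Veh-LPS, n = 4) and Ctrl mice given vehicle and PBS (Ctrl-Veh-PBS, n = 4). No Ctrl mice received CBD, so CBD was compared within GW mice. Whether a library holds 1 mouse or a pool is not stated in the labels, and p-values measure the spread between libraries, which may be partly technical. In RNA from whole sorted samples, fewer cells that express a gene and less RNA of it per cell cannot be told apart.

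The main brain endocannabinoid, 2-arachidonoylglycerol (2-AG), is cut from diacylglycerol by the diacylglycerol lipases and broken down to arachidonic acid and glycerol, chiefly by monoacylglycerol lipase with smaller shares by ABHD6 and ABHD12. Anandamide, the other classical endocannabinoid, is released from N-acylphosphatidylethanolamines by NAPE-PLD and other routes and hydrolysed by FAAH. Microglia make 2-AG, carry the cannabinoid receptor CB2, and pass arachidonic acid from 2-AG hydrolysis to the eicosanoid pathways.

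Library totals ran from 28676930 to 40458326 counts. All 10 microglial markers, among them P2ry12 and Tmem119, were detected in every library, and their summed level was 25620 to 55411 CPM (a gene's counts scaled to a common library size). Markers of neurons summed to 1.49 to 6.24 CPM, of T and NK cells to 0.372 to 28.1 CPM, of endothelium to 16.5 to 62.5 CPM, of astrocytes to 125 to 265 CPM, of oligodendrocytes to 240 to 613 CPM, of monocytes to 76.2 to 2000 CPM, of border macrophages to 183 to 589 CPM, and of red cells to 61.4 to 1568 CPM. The B-cell list summed to 200 to 1118 CPM, of which Ighm alone held 166 to 1055 CPM. The neutrophil markers summed to 27340 CPM in Ctrl-Veh-PBS replicate 3, 2988 CPM in Ctrl-Veh-LPS replicate 1 and 2034 CPM in GW-Veh-PBS replicate 1, and to 425 to 1084 CPM in the others. Some results of the 10 genes are also given without these 3 neutrophil-marked libraries. For differences in LPS response between treatments, and for a wider gene list, no value of a single gene without all 3 is given.

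The first bases around the transcript start are shown for 3 genes. Mgll and Abhd6 were taken because both fell with LPS in mice without CBD, and Gpr18 because it rose with LPS in Ctrl mice. Each window runs from 250 bases before to 50 bases after a RefSeq start (GRCm38.p6), 5′ to 3′ on the strand of the gene, and capitals mark the motif named after it. The Mgll window is chr6:88724162-88724461 on the plus strand, the Abhd6 window chr14:8002638-8002937 on the plus strand, and the Gpr18 window chr14:121915839-121916138 on the minus strand.
Mgll: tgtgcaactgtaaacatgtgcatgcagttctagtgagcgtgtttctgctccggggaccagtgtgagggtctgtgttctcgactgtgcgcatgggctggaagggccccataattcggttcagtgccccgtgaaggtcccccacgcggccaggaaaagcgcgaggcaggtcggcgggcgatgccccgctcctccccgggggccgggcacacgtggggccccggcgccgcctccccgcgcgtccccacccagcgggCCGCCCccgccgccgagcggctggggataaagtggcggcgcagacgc
Abhd6: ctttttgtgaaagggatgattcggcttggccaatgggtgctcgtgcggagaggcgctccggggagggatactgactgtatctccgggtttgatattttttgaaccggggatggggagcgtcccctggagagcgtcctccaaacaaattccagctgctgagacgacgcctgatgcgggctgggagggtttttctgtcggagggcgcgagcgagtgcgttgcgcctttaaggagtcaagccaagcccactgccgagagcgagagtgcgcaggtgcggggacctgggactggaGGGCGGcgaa
Gpr18: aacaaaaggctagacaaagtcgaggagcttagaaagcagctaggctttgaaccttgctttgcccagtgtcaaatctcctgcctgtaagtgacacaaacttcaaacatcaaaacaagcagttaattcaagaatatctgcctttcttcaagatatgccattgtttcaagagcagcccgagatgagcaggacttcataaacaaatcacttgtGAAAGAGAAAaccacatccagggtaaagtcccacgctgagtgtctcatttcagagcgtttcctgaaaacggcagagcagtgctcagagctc
The Mgll and Abhd6 windows were 70% and 60.7% G or C and each held 1 GC box (GGGCGG or its complement CCGCCC, at bases 4 to 9 and 41 to 46 after the start), while the Gpr18 window was 44% G or C and held 1 interferon-response motif (GAAA, any 2 bases and GAAA again, at bases -41 to -32). The GC box occurs in 35.7% and the interferon-response motif in 3.44% of all 32851 RefSeq promoter windows of this length. Both strands were also searched for an NF-kB motif (GGGA, any 2 bases and TTCC, in 1.47% of windows), a PU.1/ETS motif (GAGGAAG, 13.6%), a C/EBP motif (TTGCNNCAA, 2.08%), the cAMP response element (TGACGTCA, 1.79%) and a TATA box (TATAAA, 13.6%). Of the 13 windows of the 8 genes that matched, Trpv2 held PU.1/ETS matches and 1 TATA box, Faah held GC boxes, and no searched motif was found for Daglb, Cnr2 or Napepld. A match is a run of letters and not a measured binding site.

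The levels of the 10 genes per length spanned from abundant to nearly absent, and Abhd12, a hydrolase of 2-AG and of lysophosphatidylserine, had the highest. Per kilobase of merged exon it averaged 534 ± 63.0 CPM (SD, n = 22 libraries). Daglb followed at 70.0 ± 11.6, then Trpv2 at 33.4 ± 2.73, Abhd6 at 31.0 ± 7.22, Mgll at 13.9 ± 5.45, Cnr2 at 11.1 ± 4.35 and Dagla at 4.99 ± 1.31 CPM per kilobase. Lowest were Gpr18 at 2.39 ± 2.27, Napepld at 0.408 ± 0.179 and Faah at 0.0414 ± 0.0444 CPM per kilobase. Most neighbours in this order were apart in all or nearly all libraries. Exceptions were Trpv2 and Abhd6, where Trpv2 was the higher in 17 of 22 libraries, Mgll and Cnr2, where Mgll was the higher in 15, and Dagla and Gpr18, where Dagla was the higher in 18. Daglb thus stood above Dagla as the more abundant of the pair of diacylglycerol lipases in each library, and Cnr1, the gene of the neuronal cannabinoid receptor CB1, averaged 0.0322 CPM with a highest value of 0.310 CPM and did not enter the tests.

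**Figure D1:**
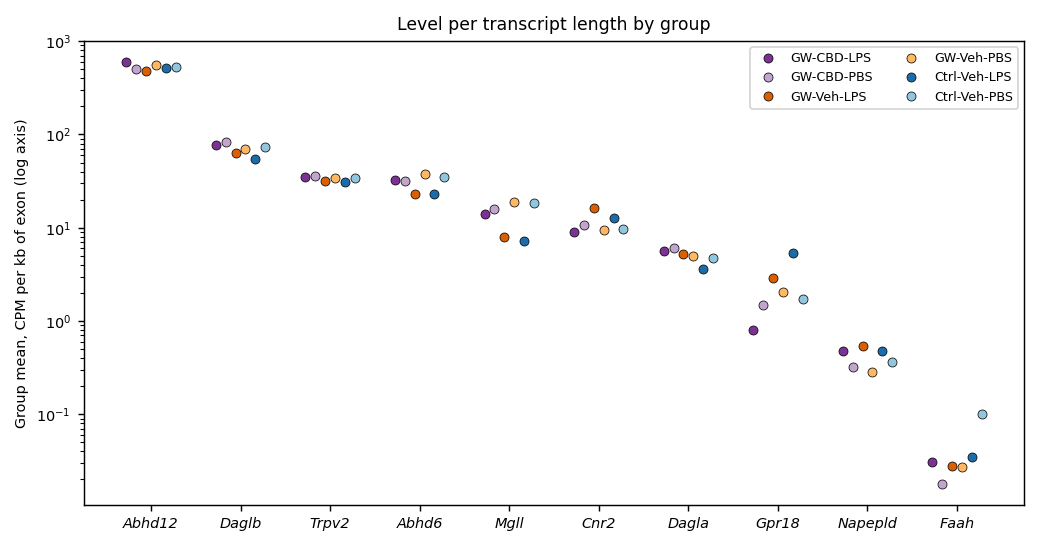
Group mean levels of the 10 genes as CPM per kilobase of merged exon on a log axis, with 1 point per group. Abhd12 lies highest and Faah lowest, and the group means run from 7.21 to 19.0 CPM per kilobase for Mgll and from 0.794 to 5.32 CPM per kilobase for Gpr18.

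Mgll and Abhd6, 2 hydrolases of 2-AG, fell with LPS in mice without CBD, and in Ctrl mice Daglb also fell and Gpr18 rose. A gene was called where its Benjamini-Hochberg adjusted p, over all genes tested with edgeR, a count model, was under 0.05. By that rule 1 of the 10 genes rose and 3 fell in Ctrl mice, where 20.4% of all genes tested were called (10.8% higher and 9.62% lower). An unadjusted p under 0.05 was reached by 4 of the 10 and by 33.5% of all genes. The ranges of Mgll, Abhd6, Daglb and Cnr2 did not overlap, against 23% of all genes. With LPS in GW mice without CBD, Mgll and Abhd6 fell, and 9.53% of all genes were called (4.45% higher and 5.07% lower). The same 2 genes were without overlap, against 19.6% of all genes. With LPS in GW mice on CBD none of the 10 passed, and 0.417% of all genes did (0.393% higher and 0.0242% lower). The ranges of Abhd12 and Gpr18 did not overlap there, against 14.2% of all genes. None of the 10 had an unadjusted p under 0.05 there, against 11% of all genes, DESeq2, another count model, also called none, and limma voom, a linear model of log counts with library weights, called Abhd12 higher and Gpr18 lower. Shares of all genes called are those of edgeR on all libraries, here and below. Shares with DESeq2 and limma voom are not given, so calls with these 2 tools cannot be set against a share of all genes. The median log2 fold change of 9 of the genes, without Faah for its low counts, was -0.10 in GW mice on CBD, -0.08 in GW mice without CBD and -0.13 in Ctrl mice, beside medians over all genes of 0.00, -0.04 and -0.02.

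**Figure D2:**
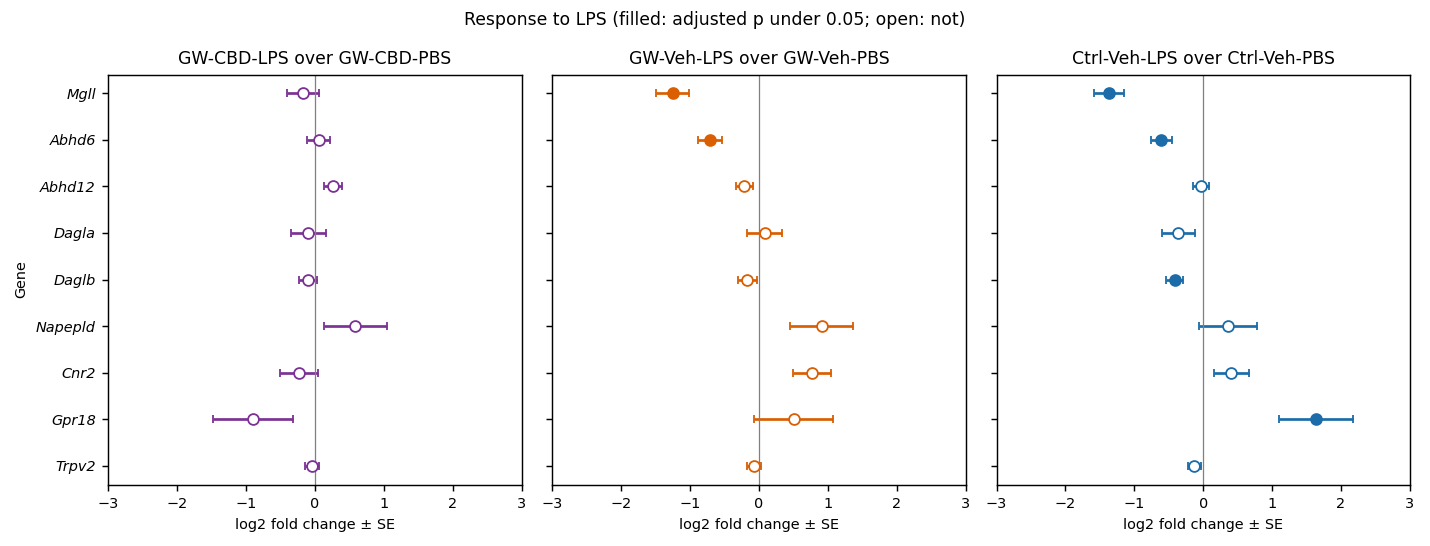
Log2 fold change of LPS over PBS with its SE for 9 of the genes (without Faah, for its low counts) in GW mice on CBD, GW mice without CBD and Ctrl mice; filled points have an edgeR adjusted p under 0.05. Filled points are absent in GW-CBD mice, are Mgll and Abhd6 in GW-Veh mice, and are Mgll, Abhd6, Daglb and Gpr18 in Ctrl mice.

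Mgll, the gene of monoacylglycerol lipase, which carries out most 2-AG hydrolysis in the brain, fell with LPS in mice without CBD. The gene (ENSMUSG00000033174) lies on chromosome 6 at 88724412 to 88828360 in GRCm38. In Ctrl mice its level was 22.8, 36.8, 47.9 and 39.0 CPM in Ctrl-Veh-LPS, against 98.5, 109, 84.6 and 85.3 CPM in Ctrl-Veh-PBS. Every LPS library lay below every PBS library. The log2 fold change was -1.37 ± 0.22 (SE; adjusted p = 0.000157, edgeR quasi-likelihood test over all genes). In GW mice without CBD the levels were 48.1, 30.7 and 42.4 CPM in GW-Veh-LPS, against 125, 73.2, 87.3 and 99.5 CPM in GW-Veh-PBS. These groups did not overlap either, and the log2 fold change was -1.25 ± 0.24 (edgeR adjusted p = 0.00241). In GW mice on CBD the levels were 62.2, 49.7, 84.0 and 87.6 CPM in GW-CBD-LPS, against 75.3, 90.6 and 74.6 CPM in GW-CBD-PBS. Here the groups overlapped, with 2 LPS libraries below and 2 within the PBS range, and the log2 fold change of -0.18 ± 0.23 did not pass (edgeR adjusted p = 0.845, 95% interval -0.66 to 0.30). A gene on the other strand, Gm26588, overlaps Mgll, and because the strand setting of the counting is not given, reads of both cannot be told apart where they overlap.

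Abhd6, the gene of a membrane-bound monoacylglycerol hydrolase (ENSMUSG00000025277, chromosome 14, 8002902 to 8056763), followed the same order at a smaller size. It stood at 50.7, 44.5, 64.4 and 60.1 CPM in Ctrl-Veh-LPS, against 85.3, 100.2, 72.8 and 76.5 CPM in Ctrl-Veh-PBS. No library of one group reached the other, and the gene fell by 0.61 ± 0.16 on the log2 scale (edgeR adjusted p = 0.00896). It stood at 59.8, 44.9 and 60.5 CPM in GW-Veh-LPS, against 108.8, 67.1, 87.5 and 97.6 CPM in GW-Veh-PBS, again without overlap. The log2 fold change was -0.71 ± 0.17 (edgeR adjusted p = 0.0125), and without GW-Veh-LPS replicate 3, the lowest library, it was -0.59 and did not pass (edgeR adjusted p = 0.078). The call was also lost with only the compared groups fitted (edgeR adjusted p = 0.0892). In GW mice on CBD the values were 76.3, 63.2, 80.3 and 88.4 CPM in GW-CBD-LPS, against 70.0, 76.2 and 76.7 CPM in GW-CBD-PBS. The LPS libraries lay on both sides of the PBS libraries, and the log2 difference was 0.05 ± 0.17 (edgeR adjusted p = 0.952).

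The microglial marker list moved with both genes. Of its 10 members 6 were lower with LPS in GW mice without CBD and 7 in Ctrl mice, with none higher. Their summed level was 25620 to 35834 CPM in Ctrl-Veh-LPS, against 42876 to 55411 CPM in Ctrl-Veh-PBS. It was 32199 to 38043 CPM in GW-Veh-LPS, against 44944 to 50291 CPM in GW-Veh-PBS, and 42849 to 51432 CPM in GW-CBD-LPS, against 50844 to 53133 CPM in GW-CBD-PBS. Other lists moved too. Of the border macrophage markers 3 of 8 were higher with LPS in GW mice without CBD (sums of 369 to 589 CPM in GW-Veh-LPS, against 183 to 285 CPM in GW-Veh-PBS), and 2 of 8 in Ctrl mice (248 to 429 CPM in Ctrl-Veh-LPS, against 267 to 343 CPM in Ctrl-Veh-PBS). Of the B-cell list 2 of 7 were lower in both arms, with sums of 200 to 718 CPM in GW-Veh-LPS, against 897 to 1031 CPM in GW-Veh-PBS. Of the red-cell markers 5 of 6 were lower in GW mice without CBD (65.9 to 137 CPM in GW-Veh-LPS, against 259 to 1568 CPM in GW-Veh-PBS) and 3 of 6 in Ctrl mice (73.4 to 376 CPM in Ctrl-Veh-LPS, against 279.9 to 1336 CPM in Ctrl-Veh-PBS). At most 2 genes of any other list were called in these 2 comparisons, and no marker of any list was called with LPS in GW mice on CBD. The part of these lists in the change of Mgll and Abhd6 was not tested. With the 3 neutrophil-marked libraries left out, the log2 fold changes with LPS were -1.12 for Mgll and -0.63 for Abhd6 in GW mice without CBD (edgeR adjusted p = 0.00347 and 0.0388), and -1.26 for Mgll and -0.65 for Abhd6 in Ctrl mice (0.00057 and 0.0195).

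Abhd12 and Faah, the remaining hydrolases, passed in no comparison with edgeR. With limma voom Abhd12 passed for LPS in GW mice on CBD (adjusted p = 0.0491) and Faah for CBD with LPS (0.0272). Abhd12 (ENSMUSG00000032046, chromosome 2, 150832493 to 150904741), whose loss in people causes a neurodegenerative disease, ran from 988 to 1865 CPM over all libraries. In Ctrl mice it had 1339, 1339, 1574 and 1574 CPM in Ctrl-Veh-LPS, against 1527, 1537, 1364 and 1519 CPM in Ctrl-Veh-PBS. Those groups overlapped, with a log2 difference of -0.03 ± 0.12 (edgeR adjusted p = 0.891). In GW mice without CBD it had 1585, 988 and 1496 CPM in GW-Veh-LPS, against 1775, 1479, 1565 and 1467 CPM in GW-Veh-PBS. On CBD it had 1641, 1618, 1663 and 1865 CPM in GW-CBD-LPS, against 1320, 1432 and 1489 CPM in GW-CBD-PBS. These last groups did not overlap, as held for 14.2% of all genes, and the log2 difference of 0.26 ± 0.13 did not pass (edgeR adjusted p = 0.472). Faah (ENSMUSG00000034171, chromosome 4, 115967145 to 116017926), which degrades anandamide, had 0 to 48 counts per library, was at 0 in 4 of 22 libraries and reached 10 counts in 10. Its highest group was Ctrl-Veh-PBS with 0.396, 1.25, 1.13 and 0.391 CPM, and the other groups held 0 to 0.671 CPM. At this depth no fold change of Faah is given.

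**Figure D3:**
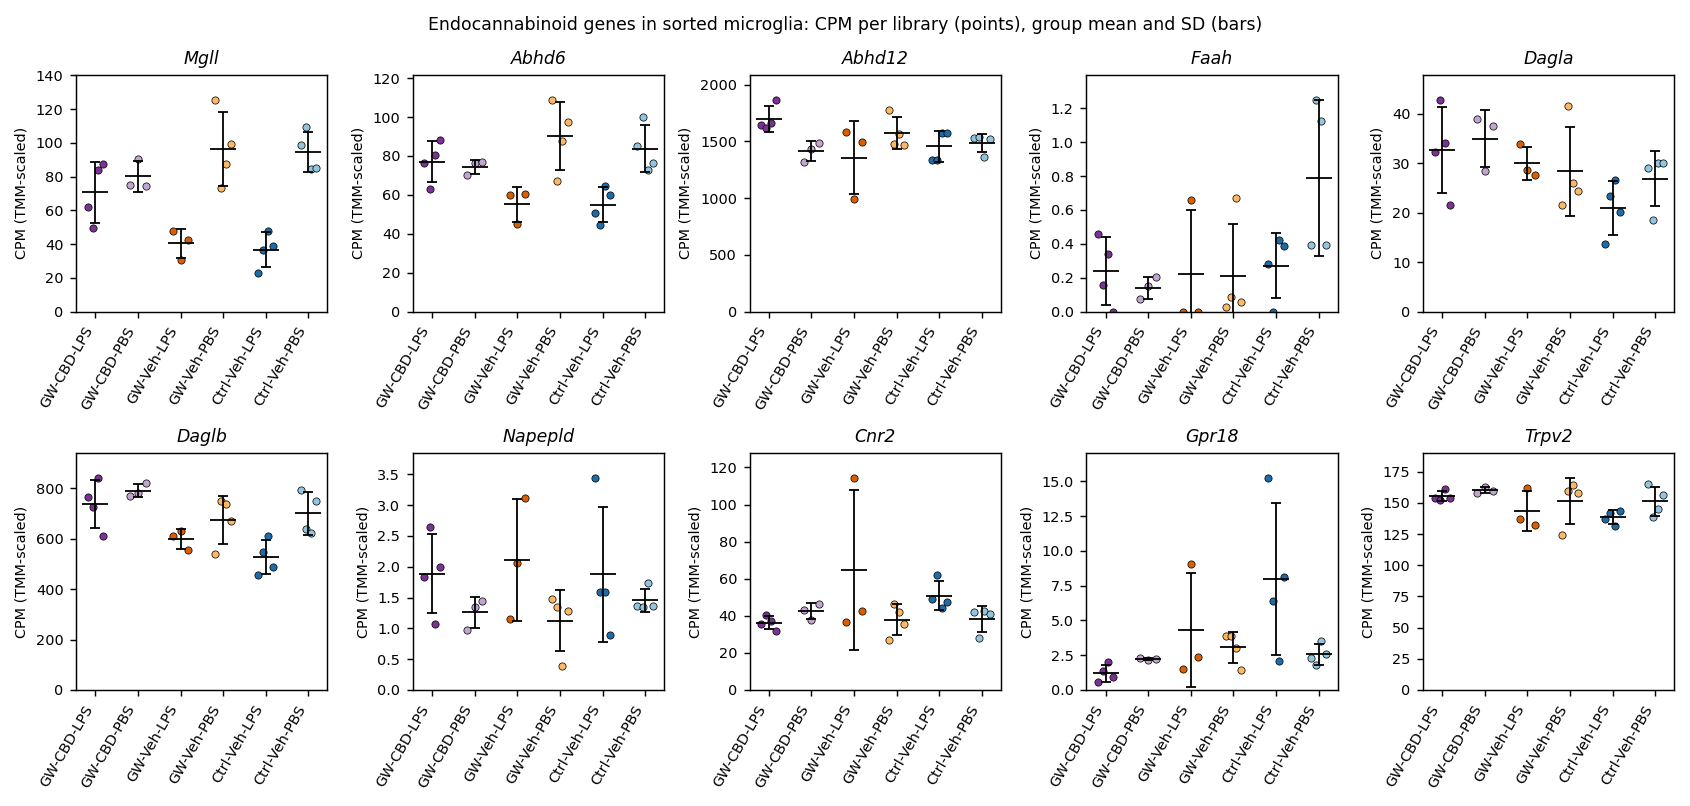
CPM of each gene in each library (points, 22 libraries in 6 groups), with the group mean and SD as bars; axes start at 0 and SD bars that would reach below 0 end there. Mgll and Abhd6 are low in GW-Veh-LPS and Ctrl-Veh-LPS (Mgll 30.7 to 48.1 and 22.8 to 47.9 CPM), while GW-CBD-LPS lies at 49.7 to 87.6 CPM for Mgll.

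Of the synthesis enzymes, Daglb alone passed with LPS with edgeR, and limma voom also called Napepld higher in GW mice without CBD (adjusted p = 0.013). Diacylglycerol lipase beta, its product, is the form known for 2-AG synthesis in macrophages and microglia. The gene (ENSMUSG00000039206, chromosome 5, 143464584 to 143505942) had 457, 549, 609 and 489 CPM in Ctrl-Veh-LPS, against 794, 638, 622 and 748 CPM in Ctrl-Veh-PBS. The groups did not overlap, and it fell by 0.41 ± 0.12 on the log2 scale (edgeR adjusted p = 0.0224). The call was lost without Ctrl-Veh-LPS replicate 1 or 4 (edgeR adjusted p = 0.0815 and 0.0651) and without Ctrl-Veh-PBS replicate 1 or 4 (0.0801 and 0.064). In GW mice without CBD the values were 613, 633 and 554 CPM in GW-Veh-LPS, against 541, 749, 740 and 670 CPM in GW-Veh-PBS. In GW mice on CBD they were 767, 727, 840 and 613 CPM in GW-CBD-LPS, against 771, 783 and 819 CPM in GW-CBD-PBS. Both pairs overlapped, with log2 differences of -0.17 ± 0.13 and -0.10 ± 0.13 that did not pass (edgeR adjusted p = 0.473 and 0.845), although limma voom called the difference in GW mice without CBD (adjusted p = 0.0262). Exons of Rac1 on the other strand overlap Daglb, so its reads are subject to the same doubt on strand as those of Mgll.

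Dagla and Napepld passed in no comparison with edgeR on all libraries. Dagla (ENSMUSG00000035735, chromosome 19, 10245265 to 10304877), the form that makes 2-AG at synapses, had 13.7, 23.4, 26.6 and 20.1 CPM in Ctrl-Veh-LPS, against 29.0, 18.5, 30.0 and 30.1 CPM in Ctrl-Veh-PBS. It had 33.8, 28.6 and 27.7 CPM in GW-Veh-LPS, against 21.5, 41.6, 26.0 and 24.3 CPM in GW-Veh-PBS, and 32.2, 42.8, 34.1 and 21.6 CPM in GW-CBD-LPS, against 39.0, 28.4 and 37.5 CPM in GW-CBD-PBS. Libraries overlapped within each of these pairs. Napepld (ENSMUSG00000044968, chromosome 5, 21662901 to 21701396), an enzyme of anandamide synthesis, stood at 0.392 to 3.44 CPM over all libraries from 14 to 108 counts. Its means with LPS were 1.89 ± 0.648 CPM in GW-CBD-LPS, 2.11 ± 0.988 CPM in GW-Veh-LPS and 1.88 ± 1.09 CPM in Ctrl-Veh-LPS, against 1.26 ± 0.246 CPM in GW-CBD-PBS, 1.13 ± 0.495 CPM in GW-Veh-PBS and 1.46 ± 0.184 CPM in Ctrl-Veh-PBS (SD). The LPS mean was the higher in each arm, but the groups overlapped in all 3.

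Among the receptors, Cnr2 was not past the threshold in any comparison with edgeR on all libraries. Cnr2 (ENSMUSG00000062585, chromosome 4, 135895394 to 135920207) encodes CB2, the cannabinoid receptor of immune cells. It had 49.0, 62.1, 44.4 and 47.6 CPM in Ctrl-Veh-LPS, against 41.8, 28.0, 42.4 and 40.9 CPM in Ctrl-Veh-PBS. All LPS libraries were the higher, by a log2 difference of 0.41 ± 0.26 that did not pass (edgeR adjusted p = 0.283). In GW mice without CBD it had 36.8, 114 and 42.5 CPM in GW-Veh-LPS, against 27.2, 46.5, 42.1 and 35.6 CPM in GW-Veh-PBS. The log2 difference was 0.77 ± 0.28 (edgeR adjusted p = 0.0841) and rested on 1 library: without GW-Veh-LPS replicate 3 it was 0.06 (adjusted p = 0.909), and without replicate 2 it was 1.02 and passed (adjusted p = 0.0276). On CBD it had 35.7, 40.7, 36.9 and 31.9 CPM in GW-CBD-LPS, against 43.4, 37.9 and 46.5 CPM in GW-CBD-PBS, with overlap.

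Gpr18 (ENSMUSG00000050350, chromosome 14, 121911253 to 121915781), which encodes a receptor coupled to inhibitory G proteins and is known from lymphoid cells, rose with LPS in Ctrl mice. Its level was 15.2, 6.41, 2.11 and 8.15 CPM in Ctrl-Veh-LPS, against 2.31, 1.77, 3.55 and 2.60 CPM in Ctrl-Veh-PBS. Of the LPS libraries 3 stood above all PBS libraries and replicate 3 within their range. The log2 fold change was 1.64 ± 0.54 (edgeR adjusted p = 0.0363). The call was lost without Ctrl-Veh-LPS replicate 1 or 4 (edgeR adjusted p = 0.176 and 0.0645), without Ctrl-Veh-PBS replicate 1, 2 or 4 (0.0828, 0.089 and 0.0754), and with the 3 neutrophil-marked libraries left out (log2 fold change 1.30, adjusted p = 0.153). A fit of only the compared groups lost it too. Each of the 3 neutrophil-marked libraries had the most Gpr18 of its group. Ctrl-Veh-LPS replicate 1 (neutrophil marker sum of 2988 CPM) had 15.2 CPM, and Ctrl-Veh-PBS replicate 3 (27340 CPM) had 3.55 CPM. GW-Veh-PBS replicate 1 (2034 CPM) had 3.87 CPM, beside 3.85 CPM in replicate 2. Monocyte markers summed to 623 CPM in Ctrl-Veh-LPS replicate 1, against 168 to 219 CPM in the other Ctrl-Veh-LPS libraries, and to 2000 CPM in Ctrl-Veh-PBS replicate 3. Markers of T and NK cells summed to 0.372 to 2.40 CPM in Ctrl-Veh-LPS, with 2 of the 8 genes at 0 in all of these libraries. In Ctrl-Veh-PBS they summed to 28.1 CPM in replicate 3 and to 3.09 to 4.76 CPM in the others. The B-cell list summed to 294 to 563 CPM in Ctrl-Veh-LPS, against 1017 to 1118 CPM in Ctrl-Veh-PBS. The part of these marker lists in the change of Gpr18 was not tested.

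In GW mice without CBD, Gpr18 had 1.53, 9.05 and 2.40 CPM in GW-Veh-LPS, against 3.87, 3.85, 3.05 and 1.46 CPM in GW-Veh-PBS. In GW mice on CBD it had 0.545, 1.33, 1.98 and 0.909 CPM in GW-CBD-LPS, against 2.32, 2.17 and 2.20 CPM in GW-CBD-PBS. With CBD each LPS library lay below each PBS library (14.2% of all genes were without overlap), but the log2 difference of -0.90 ± 0.58 did not pass (edgeR adjusted p = 0.613). Trpv2 (ENSMUSG00000018507, chromosome 11, 62574486 to 62600515), a cation channel that CBD opens, had the smallest SD relative to its mean of the 10. It averaged 156 ± 4.01 CPM in GW-CBD-LPS, 144 ± 16.2 CPM in GW-Veh-LPS and 139 ± 5.33 CPM in Ctrl-Veh-LPS, against 160 ± 2.36 CPM in GW-CBD-PBS, 152 ± 18.3 CPM in GW-Veh-PBS and 151 ± 11.6 CPM in Ctrl-Veh-PBS (SD). Its log2 differences with LPS were -0.04 ± 0.11 in GW mice on CBD, -0.08 ± 0.11 in GW mice without CBD and -0.13 ± 0.10 in Ctrl mice, none past the threshold with edgeR. Limma voom called Trpv2 lower with LPS in GW mice without CBD (adjusted p = 0.0267).

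Whether the response to LPS differed between the arms was tested as an interaction. Set against Ctrl mice, the LPS response of Mgll in GW mice on CBD was less negative by 1.19 ± 0.32 on the log2 scale (edgeR adjusted p = 0.0569) and that of Gpr18 lower by 2.54 ± 0.79 (log2 difference -2.54, adjusted p = 0.1). Neither passed with edgeR, nor did any of the other 8 genes, while 1.98% of all genes were called. An unadjusted p under 0.05 was reached by 3 of the 10 and by 15.5% of all genes. The Mgll difference passed with DESeq2 (adjusted p = 0.0083), with limma voom (0.00314), without the filter on low counts (0.0436), without GW-CBD-LPS replicate 2 (0.0245) and without Ctrl-Veh-LPS replicate 3 (0.0249). Gpr18 passed with DESeq2 (0.0301), with limma voom (0.0052) and without Ctrl-Veh-LPS replicate 3 (0.0351). Limma voom also called Abhd6 and Daglb (adjusted p = 0.0239 and 0.0406). Set against GW mice without CBD, the differences were 1.08 ± 0.33 for Mgll and 0.76 ± 0.24 for Abhd6 (edgeR adjusted p = 0.175 and 0.185). Of the 10 genes 4 had an unadjusted p under 0.05 in that comparison, against 15.3% of all genes, and 0 of the 10 passed, against 0.0181% of all genes. DESeq2 also called none of the 10, and limma voom called Mgll and Abhd6 (adjusted p = 0.0119 and 0.0149). Between GW and Ctrl mice without CBD, no gene of the table passed (0%), and the Mgll responses differed by 0.11 ± 0.32 (edgeR adjusted p = 0.9, 95% interval -0.55 to 0.77). None of the 10 had an unadjusted p under 0.05 in this comparison, against 12.7% of all genes, and neither DESeq2 nor limma voom called any of them.

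After LPS, GW mice on CBD differed from Ctrl mice in 4 of the 10 genes, 3 higher and 1 lower, where 14.1% of all genes were called (6.97% higher and 7.11% lower). An unadjusted p under 0.05 was reached by 5 of the 10 and by 29.1% of all genes. Mgll averaged 70.9 ± 18.1 CPM in GW-CBD-LPS and 36.6 ± 10.4 CPM in Ctrl-Veh-LPS (SD, n = 4 each), without overlap, and was higher by 0.95 ± 0.22 on the log2 scale (edgeR adjusted p = 0.0059). Daglb averaged 737 ± 95.1 CPM in GW-CBD-LPS and 526 ± 67.2 CPM in Ctrl-Veh-LPS, also without overlap, with a log2 fold change of 0.49 ± 0.12 (edgeR adjusted p = 0.0128). That call was lost without Ctrl-Veh-LPS replicate 1 (edgeR adjusted p = 0.0543) and with only the compared groups fitted (0.0517). Gpr18 averaged 1.19 ± 0.615 CPM in GW-CBD-LPS and 7.98 ± 5.46 CPM in Ctrl-Veh-LPS, each treated library below each Ctrl library. Its log2 fold change was -2.74 ± 0.57 (edgeR adjusted p = 0.00294), and -2.20 with the 3 neutrophil-marked libraries left out (adjusted p = 0.0154).

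Abhd6 averaged 77.0 ± 10.5 CPM in GW-CBD-LPS and 54.9 ± 9.03 CPM in Ctrl-Veh-LPS and passed narrowly (log2 fold change 0.49 ± 0.16, edgeR adjusted p = 0.0425). The groups overlapped by 1 library on each side. The call was lost without GW-CBD-LPS replicate 1, 3 or 4 (edgeR adjusted p = 0.0855, 0.0906 and 0.0919), without Ctrl-Veh-LPS replicate 1, 2 or 4 (0.122, 0.11 and 0.0578), with the 3 neutrophil-marked libraries left out (0.0883) and with the replicate number as a block (0.0523). A fit of only the compared groups lost it as well. Dagla stood at 32.7 ± 8.69 CPM in GW-CBD-LPS and 21.0 ± 5.52 CPM in Ctrl-Veh-LPS and did not pass (log2 difference 0.64 ± 0.24, edgeR adjusted p = 0.0732). It passed with DESeq2 (adjusted p = 0.0364), with limma voom (0.0176), without GW-CBD-LPS replicate 4 (0.0264) and without Ctrl-Veh-LPS replicate 3 (0.0396). Limma voom also called Cnr2 lower (adjusted p = 0.0479). In all, 6 of the 10 genes did not overlap between these groups (Mgll, Abhd12, Daglb and Trpv2 higher, Cnr2 and Gpr18 lower), against 15% of all genes. Of the microglial markers 7 of 10 were higher in GW-CBD-LPS than in Ctrl-Veh-LPS (42849 to 51432 CPM, against 25620 to 35834 CPM, as sums). The B-cell list summed to 917 to 1062 CPM in GW-CBD-LPS, against 294 to 563 CPM in Ctrl-Veh-LPS, with 1 of 7 higher, 1 of 6 oligodendrocyte and 1 of 6 endothelial markers were higher, and 2 of 12 neutrophil and 1 of 8 border macrophage markers were lower. The part of these lists in the differences was not tested. These 2 groups differ in both the GW exposure and CBD.

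Set against GW-Veh-LPS, none of the 10 passed with CBD and LPS, where 2.31% of all genes did (1.06% higher and 1.24% lower), but 6 had an unadjusted p under 0.05, against 14.4% of all genes. Mgll averaged 70.9 ± 18.1 CPM in GW-CBD-LPS and 40.4 ± 8.85 CPM in GW-Veh-LPS without overlap (log2 difference 0.81 ± 0.24, edgeR adjusted p = 0.0768). Mgll passed with DESeq2 (adjusted p = 0.0165), with limma voom (0.00435), without GW-CBD-LPS replicate 2 (0.0276) and with the 3 neutrophil-marked libraries left out (0.0227). None of those 3 libraries is in either group compared here. Leaving them out changed only what all groups share in the fit, such as the estimate of the spread, and tells nothing of neutrophil RNA in this comparison. Abhd6 averaged 77.0 ± 10.5 CPM in GW-CBD-LPS and 55.1 ± 8.81 CPM in GW-Veh-LPS (log2 difference 0.48 ± 0.17, adjusted p = 0.157), and Abhd12 1697 ± 113 and 1356 ± 322 CPM in the same groups (0.32 ± 0.13, adjusted p = 0.228). These 3 genes were without overlap, against 12.8% of all genes. The difference for Cnr2 was -0.83 ± 0.28 (adjusted p = 0.13) and that for Gpr18 -1.85 ± 0.58 (adjusted p = 0.104). Gpr18 passed with DESeq2 (adjusted p = 0.0287), and limma voom called Gpr18 (0.019), Abhd6 (0.013), Daglb (0.0011), Trpv2 (0.0286) and Faah (0.0272). The share of 2.31% is that of edgeR, and no share of all genes is given for DESeq2 or limma voom. The edgeR differences of Cnr2 and Gpr18 rested on GW-Veh-LPS replicate 3, which had 114 CPM of Cnr2 and 9.05 CPM of Gpr18: without it they were -0.12 (adjusted p = 0.958) and -0.71 (adjusted p = 0.782). Without GW-Veh-LPS replicate 2 they were -1.09 and -2.23 and passed (adjusted p = 0.0334 and 0.0431). Replicate 3 of GW-Veh-LPS had the lowest B-cell sum of all 22 libraries, at 200 CPM, and a neutrophil sum of 813 CPM. Of the microglial markers 4 of 10 were higher with CBD and none lower, 1 of 7 B-cell markers was higher (sums of 917 to 1062 CPM in GW-CBD-LPS, against 200 to 718 CPM in GW-Veh-LPS) and 1 of 8 border macrophage markers was lower. The part of these lists was not tested.

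Without LPS, none of the 10 genes passed for CBD in GW mice, for GW against Ctrl, or for GW-CBD against Ctrl, and neither did any gene of the table (0% in each). None of the 10 had an unadjusted p under 0.05 in these 3 comparisons, against 9.48%, 3.75% and 5.58% of all genes, and DESeq2 and limma voom called none of the 10. For Mgll the 95% interval of the log2 difference was -0.75 to 0.22 for CBD, -0.42 to 0.47 for GW and -0.72 to 0.25 for GW-CBD against Ctrl. The groups did not overlap for Daglb with CBD (771 to 819 CPM in GW-CBD-PBS, against 541 to 749 CPM in GW-Veh-PBS; 8.19% of all genes), for none of the 10 with GW (2.07%), and for Faah in GW-CBD-PBS against Ctrl-Veh-PBS (12.1%). With LPS, GW-Veh against Ctrl-Veh also gave no call among the 10 or among all genes (0%), with no unadjusted p under 0.05 among the 10, against 13.7% of all genes. DESeq2 and limma voom called none of the 10 there. Dagla was without overlap in that pair (27.7 to 33.8 CPM in GW-Veh-LPS, against 13.7 to 26.6 CPM in Ctrl-Veh-LPS; 12.5% of all genes), with a log2 difference of 0.52 ± 0.25 (edgeR adjusted p = 0.369).

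**Figure D4:**
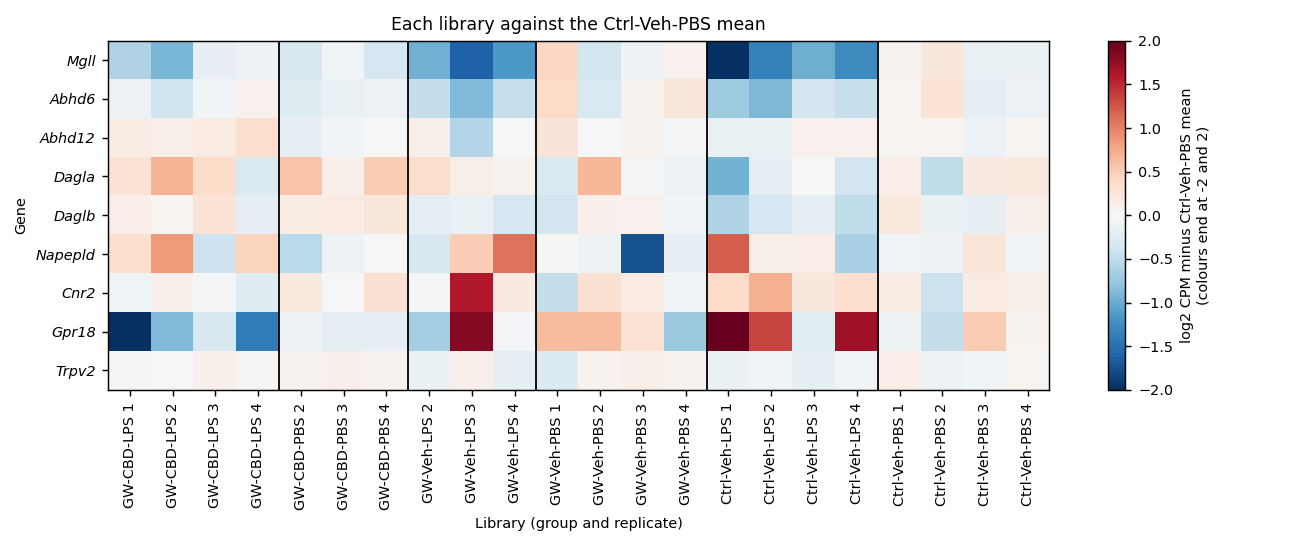
Log2 CPM of 9 of the genes in each of the 22 libraries minus the Ctrl-Veh-PBS mean, with colours ending at -2 and 2; Faah is left out for its low counts. The Mgll row is darkest blue in the GW-Veh-LPS and Ctrl-Veh-LPS libraries, and the Gpr18 row is red in 3 of the 4 Ctrl-Veh-LPS libraries and blue in the 4 GW-CBD-LPS libraries.

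The genes with patterns most like each called gene over the 22 libraries were taken by the root mean square difference of centred log2 CPM among 9151 genes. Nearest to Mgll were Hpgd, which inactivates prostaglandins, at 0.13, Ddah2 at 0.17 and Siglech, a microglial lectin, at 0.17, beside a root mean square of 0.64 for Mgll itself. The log2 difference of Hpgd with LPS was -0.26 ± 0.21 in GW mice on CBD, which did not pass (edgeR adjusted p = 0.706), -1.14 ± 0.21 in GW mice without CBD (0.00208) and -1.55 ± 0.20 in Ctrl mice (1.53e-05). Because Hpgd was picked for its likeness to Mgll in these same libraries, these values repeat the pattern of Mgll and are not separate support for it. Nearest to Abhd6 were Fbxw4 at 0.11, Gtf2h2 at 0.12 and Akirin2 at 0.12, beside a spread of 0.34. Nearest to Daglb were Ube2j1 at 0.09, Mcur1 at 0.10 and Trpc4ap at 0.10, beside a spread of 0.24. Gpr18 had no comparably close gene: Kdm6b at 0.59, Plaur at 0.59 and Tmem154 at 0.61 were the nearest, beside a spread of 1.05.

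A wider list of 54 genes of endocannabinoid synthesis, transport, oxidation and signalling, which excludes the 10, had 40 members tested. With LPS in Ctrl mice 8 of the 40 rose and 5 fell (edgeR), where 10.8% of all genes were called higher and 9.62% lower. Alox5, the 5-lipoxygenase that converts arachidonic acid to leukotriene precursors, averaged 322 ± 13.6 CPM in Ctrl-Veh-LPS and 127 ± 37.4 CPM in Ctrl-Veh-PBS (log2 fold change 1.34 ± 0.18, edgeR adjusted p = 2.3e-05). Trpv4, a cation channel opened by arachidonic acid products, rose by 0.98 ± 0.21, Gde1, a phosphodiesterase of anandamide synthesis, by 0.70 ± 0.15, and Fabp5, an intracellular carrier of anandamide, by 1.49 ± 0.36. Ptpn22, a phosphatase proposed for anandamide synthesis in macrophages, fell by 2.17 ± 0.42, and Rgs10, a brake on G protein signalling, by 1.07 ± 0.24 (log2 scale).

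With LPS in GW mice without CBD 2 of the 40 genes rose and 4 fell, where 4.45% of all genes were called higher and 5.07% lower. Alox5 averaged 305 ± 46.9 CPM in GW-Veh-LPS and 96.9 ± 13.7 CPM in GW-Veh-PBS (log2 fold change 1.65 ± 0.19, edgeR adjusted p = 5.3e-05), and Trpv4 rose by 0.92 ± 0.22. Rgs10 fell by 1.40 ± 0.26, Pla2g16, a phospholipase with acyltransferase activity, by 0.84 ± 0.21, and the fatty acid carriers Fabp3 and Fabp7 by 1.69 ± 0.44 and 2.94 ± 0.85. Fabp5, which passed in Ctrl mice, had a log2 difference of -0.77 ± 0.38 here (adjusted p = 0.224). In GW mice on CBD no gene of the list passed with LPS with edgeR, against 0.417% of all genes. DESeq2 called 1 of the list higher, as did edgeR without the filter on low counts, and limma voom called 4 higher and 2 lower. The 0.417% is the share with edgeR and the filter. Shares of all genes under the other settings are not given, so these counts cannot be set against it. Of the list 5 of 40 had an unadjusted p under 0.05, against 11% of all genes, and Alox5 averaged 133 ± 31.6 CPM in GW-CBD-LPS and 115 ± 3.69 CPM in GW-CBD-PBS. The LPS response of Alox5 was lower by 1.14 ± 0.26 on the log2 scale in GW mice on CBD than in Ctrl mice (log2 difference -1.14, edgeR adjusted p = 0.0235), the 1 gene of the list that passed with edgeR in an interaction. These arms differ in both the GW exposure and CBD. Between GW mice with and without CBD, no gene of the list passed for a difference in LPS response with edgeR, against 0.0181% of all genes.

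**Figure D5:**
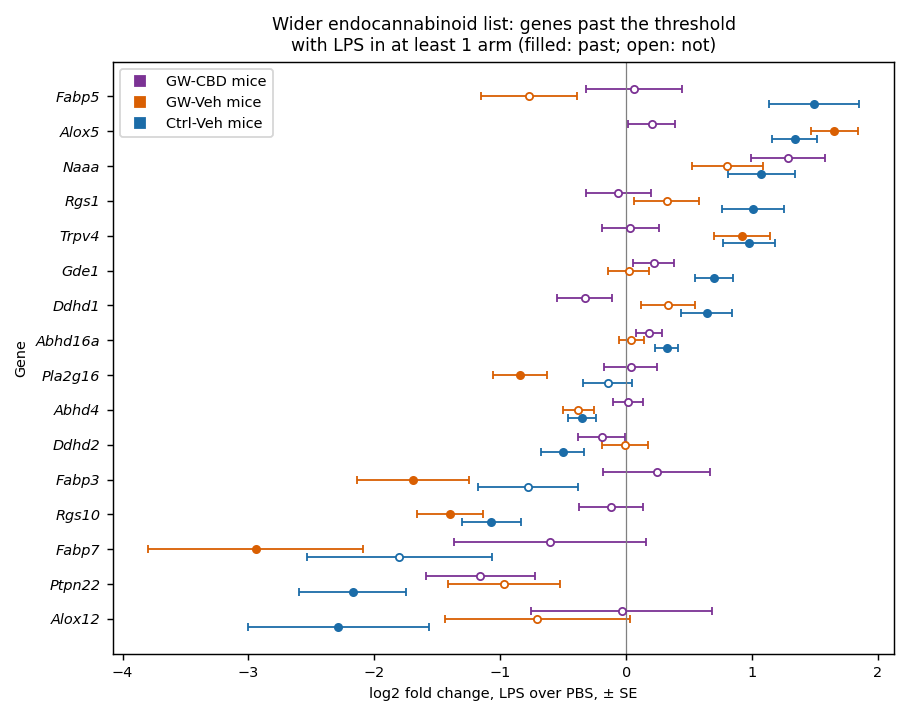
Log2 fold change of LPS over PBS with its SE for the 16 genes of the wider list that passed in at least 1 arm; filled points passed (edgeR adjusted p under 0.05) and open points did not. Alox5 and Trpv4 are filled to the right in GW-Veh and Ctrl-Veh mice and open near 0 in GW-CBD mice, at log2 values of 0.20 and 0.03.

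Between groups given LPS, Alox5 and Trpv4 were lower with CBD than without it in GW mice, by log2 fold changes of -1.20 ± 0.19 and -0.85 ± 0.22 (edgeR adjusted p = 0.00208 and 0.0471), and no other gene of the wider list passed there with edgeR, where 1.06% of all genes were called higher and 1.24% lower. In GW-CBD-LPS against Ctrl-Veh-LPS, 2 of the 40 genes were higher and 7 lower, where 6.97% of all genes were called higher and 7.11% lower. Those with the smallest p were Alox5 at -1.28 ± 0.18, Fabp5 at -1.66 ± 0.36, Rgs1, a brake on G protein signalling, at -1.09 ± 0.24, Trpv4 at -0.84 ± 0.21, Pnpla2, a triglyceride lipase, at -0.80 ± 0.25, and Rgs10 at 0.73 ± 0.23. Comparisons that use the same LPS libraries are not independent of each other. Of the 14 genes not tested, Gpr119, Gpr6, Trpv1, Trpa1 and Htr1a had no counts in any library.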

How the data were processed

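The deposited table holds whole-number counts of reads per gene, 1 column per library, which the authors made from stranded poly(A) libraries sequenced as read pairs, per the labels' protocols. The reads were aligned to GRCm38 (mm10), per the submitters' processing notes. For the aligner, counting tool, strand setting and annotation, the sources used here give nothing. Per the labels, microglia were sorted as live CD45mid, CD11b+ and CD11a- cells. Genes were matched by identifier to GENCODE M21 for coordinates and merged exon lengths. The 10 genes, the wider list and the marker lists were chosen with earlier results of these data known.

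Counts were tested with edgeR 4.0.16 in R 4.3.3 (quasi-likelihood test, TMM factors, filterByExpr), two-sided, with 1 fit of all 22 libraries, a mean per group and 12 contrasts (common biological coefficient of variation 0.352). CPM of single genes use TMM factors, log2 CPM a prior count of 2, and marker sums the library totals. Named from the wider list are the 6 called genes with the smallest p in a contrast. Of those most alike a called gene, 3 are named, with a mean of at least 5 CPM. Alternatives were RLE size factors, no filter, DESeq2 1.42.0, limma voom 3.58.1 with quality weights, only the compared groups, a block for the replicate number, and leaving out each library in turn. Leaving out the 3 neutrophil-marked libraries together was chosen after seeing the data. The test was tried on simulated counts.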

Additional observations from a re-analysis of the deposited data

Results flagged for a closer look

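In 7 of 40 combinations of a gene and a group of 4 libraries, 1 library stood apart from the other 3 by more than Dixon's 95% critical value for 4 libraries, and chance alone flags about 1 in 20. Of these, 4 fell in Ctrl-Veh-PBS. Replicate 2 was low in Cnr2 (28.0 CPM, nearest 40.9 CPM) and in Dagla (18.5 CPM, nearest 29.0 CPM), and replicate 3 was low in Abhd12 (1364 CPM, nearest 1519 CPM) and high in Napepld (1.73 CPM, nearest 1.37 CPM). The other 3 fell in GW-Veh-PBS. Replicate 1 was low in Trpv2 (124 CPM, nearest 158 CPM), and replicate 3 was low in Napepld (0.392 CPM, nearest 1.29 CPM) and high in Faah (0.671 CPM, nearest 0.0881 CPM). None of these genes was called with edgeR on all libraries in a comparison that uses these groups, and limma voom called Napepld higher and Trpv2 lower with LPS in GW mice without CBD.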

How the results depend on the processing

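The number of the 10 genes called stayed within 1.5 times its value under all alternatives but the following, whose cause was not tested. For LPS in GW mice without CBD it was 5 with limma voom and 1 with only the compared groups, against 2. For LPS in GW mice on CBD it was 2 with limma voom, and for CBD with LPS it was 2 with DESeq2, 6 with limma voom and 1 with the 3 neutrophil-marked libraries left out, an alternative chosen after seeing the data, each against 0. None of these 3 libraries is in either group compared for CBD with LPS. For GW-CBD against Ctrl with LPS it was 2 with only the compared groups, against 4. The interaction of CBD and LPS gave 2 with limma voom, and that of GW-CBD and LPS against Ctrl gave 1 without the filter, 2 with DESeq2 and 4 with limma voom, each against 0. The shares of all genes called under these alternatives are not given, so these counts cannot be set against them. With 1 library left out, the counts ran from 2 to 4 for LPS in Ctrl mice, 1 to 3 for LPS in GW mice, 0 to 2 for CBD with LPS, 2 to 5 for GW-CBD against Ctrl with LPS and 0 to 2 for GW-CBD and LPS against Ctrl, and were 0 in the other comparisons. Mgll with LPS in Ctrl and GW mice, Abhd6 with LPS in Ctrl mice, and Mgll and Gpr18 in GW-CBD against Ctrl with LPS were called under every alternative. Labels share replicate numbers, but 51 pairs of libraries with the same number had a median correlation of 0.0141 and 5 of 22 libraries correlated best with their own number, so the numbers were not taken as pairs. With the replicate number as a block 4 genes were called for LPS in Ctrl mice, 2 for LPS in GW mice and 3, without Abhd6, for GW-CBD against Ctrl with LPS. With the 3 neutrophil-marked libraries left out, Gpr18 with LPS in Ctrl mice and Abhd6 in GW-CBD against Ctrl with LPS were no longer called. The other calls among the 10 genes held. No called value changed sign. Gpr18, Napepld and Faah are limited by depth, with 434, 108 and 48 counts at most.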

Other observations

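Within every group the library with the most Mgll was also the one with the least Cnr2, and in some groups also the least Dagla. This was noticed after the values were seen. In GW-CBD-LPS, replicate 4 had the most Mgll and Abhd6 (87.6 and 88.4 CPM) and the least Cnr2 and Dagla (31.9 and 21.6 CPM). In GW-Veh-PBS the same held for replicate 1 (125 and 108.8 CPM of Mgll and Abhd6, 27.2 and 21.5 CPM of Cnr2 and Dagla), and in Ctrl-Veh-PBS for replicate 2 (109 and 100.2 CPM, 28.0 and 18.5 CPM). In the other groups it did not hold for all of these genes together. In GW-Veh-LPS replicate 2 had the most Mgll and the least Cnr2, while replicate 4 had the most Abhd6 and the least Dagla. In Ctrl-Veh-LPS replicate 3 had the most Mgll and Abhd6 and the least Cnr2, while replicate 1 had the least Dagla. In GW-CBD-PBS replicate 3 had the most Mgll and the least Cnr2 and Dagla, while replicate 4 had the most Abhd6. With at most 4 libraries a group no correlation was computed.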
